A study of Homo sapiens with 2 samples.

Results

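CDKN1A encodes p21, an inhibitor of cyclin-dependent kinases, and this account covers every row that carries its name in 2 deposited tables from paclitaxel-treated and DMSO-treated A549 cells. The table of transcript levels holds 3 CDKN1A transcripts among 993 transcripts, and the table of skipped exons holds 3 CDKN1A events among 35827 events. The rows were taken by gene name alone. The levels come from 1 library per condition: A549 cells given 7.22 nM paclitaxel for 72 h, and A549 cells given DMSO for 72 h, which the labels also list as the control with no treatment. A549 is a human non-small cell lung cancer line with wild-type p53, and paclitaxel is a drug that stabilises microtubules and disturbs the mitotic spindle. Both libraries come from this single line, and RNA from a bulk culture cannot tell more cells with CDKN1A RNA from more RNA per cell.

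p21 binds complexes of cyclins and their kinases and blocks their activity, and through a separate site it binds PCNA, the sliding clamp of DNA replication. CDKN1A is a classic direct target of p53, and its induction is a usual part of the arrest that follows DNA damage or a failed mitosis. Less kinase activity keeps the pocket proteins RB1, RBL1 and RBL2 unphosphorylated, and these repress the genes of S phase and mitosis together with E2F factors and the DREAM complex.

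Before the levels, the start regions of CDKN1A are shown, because the 3 transcripts with a level begin at 2 places. Transcripts ENST00000244741 and ENST00000405375 begin 4 bases apart, at bases 36678714 and 36678710 of chromosome 6 in hg38, on the plus strand. ENST00000615513 begins 2254 bases upstream of ENST00000244741, at base 36676460. The first sequence is the 250 bases before the main start (chr6:36678464-36678713, GRCh38.p14, plus strand, RefSeq), with each match to GGGCGG, the core of the GC box bound by SP1 factors, in capitals. The second is 100 bases at the distal start (chr6:36676369-36676468, hg38, plus strand), with a match to the p53 motif in capitals.
Main start: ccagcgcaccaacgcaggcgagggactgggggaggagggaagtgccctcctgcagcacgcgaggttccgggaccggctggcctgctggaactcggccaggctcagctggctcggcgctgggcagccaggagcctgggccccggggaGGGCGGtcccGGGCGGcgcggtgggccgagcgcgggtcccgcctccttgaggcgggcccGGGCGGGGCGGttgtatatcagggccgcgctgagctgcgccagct
Distal start: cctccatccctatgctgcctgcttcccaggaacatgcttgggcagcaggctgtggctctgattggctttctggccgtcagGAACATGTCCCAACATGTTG

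The window before the main start held 4 matches to GGGCGG, searched on both strands, and 2 of them overlap by 1 base. Of 35116 RefSeq promoter windows of the same length, 42.6% held at least 1 match and 7.63% held at least 4. The p53 motif was searched as 2 adjoining decamers of the p53 consensus with up to 2 mismatches among 20 bases, in the 3000 bases before the main start. The consensus is its own reverse complement, so 1 scan covers both strands. CDKN1A held 2 such matches, printed here with matching bases in capitals and mismatches in lower case.
Match at the distal start (chr6:36676449-36676468): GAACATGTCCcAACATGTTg
Match between the starts (chr6:36677331-36677350): GAAgAAGaCTGGGCATGTCT

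The first match lies 2265 bases before the main start by its first base, and its last 9 bases are the first bases of ENST00000615513. The second lies 1383 bases before the main start. Of 20033 protein-coding genes searched the same way, 7.42% held at least 1 match and 0.399% held at least 2. These are matches of letters, and binding of p53 was not measured.

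All 3 listed CDKN1A transcripts were higher in the paclitaxel library than in the DMSO library. FPKM, the unit of the table, counts fragments scaled by transcript length and by the number of mapped fragments, so levels can be compared between transcripts. ENST00000244741, the MANE Select transcript that stands as the reference form of the gene, had 387 FPKM with paclitaxel and 77.8 FPKM with DMSO. Its ratio was 4.98-fold, or 2.32 on the log2 scale. ENST00000405375, which shares its start region but uses a later donor site, had 22.1 FPKM with paclitaxel and 3.39 FPKM with DMSO, a ratio of 6.51-fold or 2.70 on the log2 scale. ENST00000615513, the form from the distal start, had 3.80 FPKM with paclitaxel and 0.568 FPKM with DMSO, a ratio of 6.68-fold or 2.74 on the log2 scale. Each level was thus higher with paclitaxel, and the order of the 3 transcripts was the same in both libraries. With 1 library per condition there is no spread between replicates, so no test was made, and in these tables neither the difference between libraries nor that between transcripts has a replicate check. The study's RT-PCR of CDKN1A is not analysed here.

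**Figure D1:**
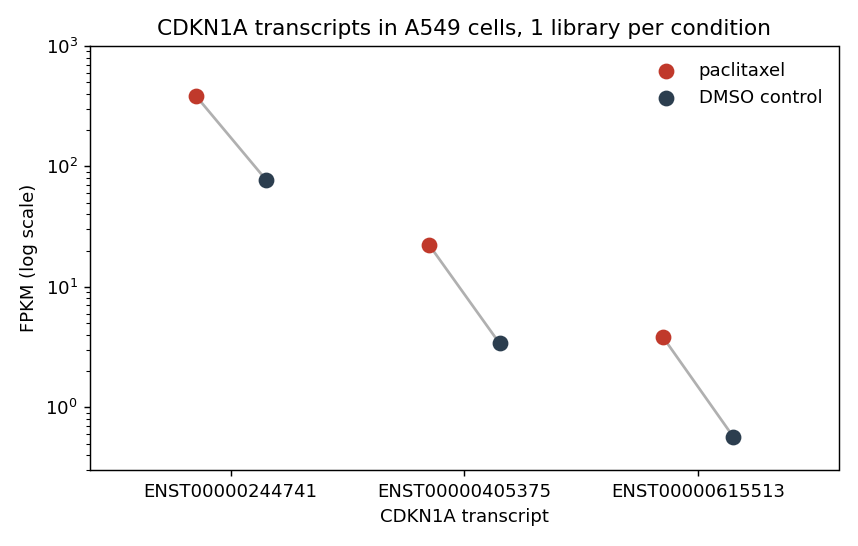
FPKM (y axis, log scale) of the 3 listed CDKN1A transcripts (x axis) in the paclitaxel library (red) and the DMSO library (dark), with 1 point per library and no error bars because each condition has 1 library. Every red point lies above its dark point, with 387 against 77.8 FPKM for ENST00000244741 and 3.80 against 0.568 FPKM for ENST00000615513.

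The shares of the 3 transcripts were alike in both libraries, to within 1.42 percentage points. ENST00000244741 made up 93.7% of the summed FPKM of the 3 transcripts with paclitaxel and 95.2% with DMSO. ENST00000405375 made up 5.35% with paclitaxel and 4.15% with DMSO, and ENST00000615513 0.920% with paclitaxel and 0.695% with DMSO. The log2 ratios of the less abundant forms exceeded that of ENST00000244741 by 0.39 for ENST00000405375 and by 0.43 for ENST00000615513. Summed over the 3 transcripts, CDKN1A stood at 413 FPKM with paclitaxel and 81.8 FPKM with DMSO, a ratio of 5.05-fold.
The division of reads among these forms rests on a small part of their sequence. In GENCODE 44, ENST00000244741 is 2117 bases long and has no base of its own, so that only its single junction between the first and second exon tells it from the other listed forms. ENST00000405375 has 145 bases of 2267 that no other listed form holds, and ENST00000615513 has 65 bases of 2102. Annotated forms with no level here hold part of these bases too. ENST00000478800 shares most of the 145 bases and the first junction of ENST00000405375, and ENST00000448526 shares part of the 65 bases. The FPKM of a transcript is the estimate that Cufflinks made from such shared reads, and its error is not given in the columns used here. GENCODE 44 has 8 transcripts of CDKN1A, and the other 5 have no level here, so these values do not give the total RNA of the gene.

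The listed transcripts were chosen by the authors' own test, which limits what their direction shows. Every transcript of the table has a q-value under 0.05 in the authors' comparison, so a CDKN1A transcript could only appear there if it differed. Of 921 listed transcripts with a level above 0 in both libraries, 418 were at least 2-fold higher with paclitaxel, which is 45.4%. The CDKN1A count of 3 of 3 is to be read beside that share. The smallest ratio among the 921, in either direction, was 2.87-fold. A limit of 2-fold therefore leaves none of them out, and counts of higher or lower record direction only. Of 28 genes with 3 or more listed transcripts, 8 had only higher ones, CDKN1A among them.
By level CDKN1A stood near the top, while its place by ratio depended on how low levels were treated. With paclitaxel ENST00000244741 had the 2nd highest FPKM of all 993 listed transcripts, and with DMSO the 83rd highest. The gain of 309 FPKM was the 2nd largest of the table. Among the 418 higher transcripts its log2 ratio ranked only 307th, below their median of 2.92, while their median level was 4.30 FPKM with paclitaxel and 0.537 FPKM with DMSO. ENST00000405375 ranked 246th and ENST00000615513 234th by the same ratio. Of the 921 transcripts above 0 in both libraries, higher and lower, 66.7% had a smaller log2 ratio than ENST00000244741. This share was 87.1% among transcripts with at least 1 FPKM in both libraries, and 93.2% of the 921 by the difference on the log2(FPKM + 1) scale. All 503 lower transcripts of the 921 count as smaller for any higher transcript. The minimum of 1 FPKM also leaves out higher transcripts that are low with DMSO. These shares therefore do not give a place among the higher transcripts.

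**Figure D2:**
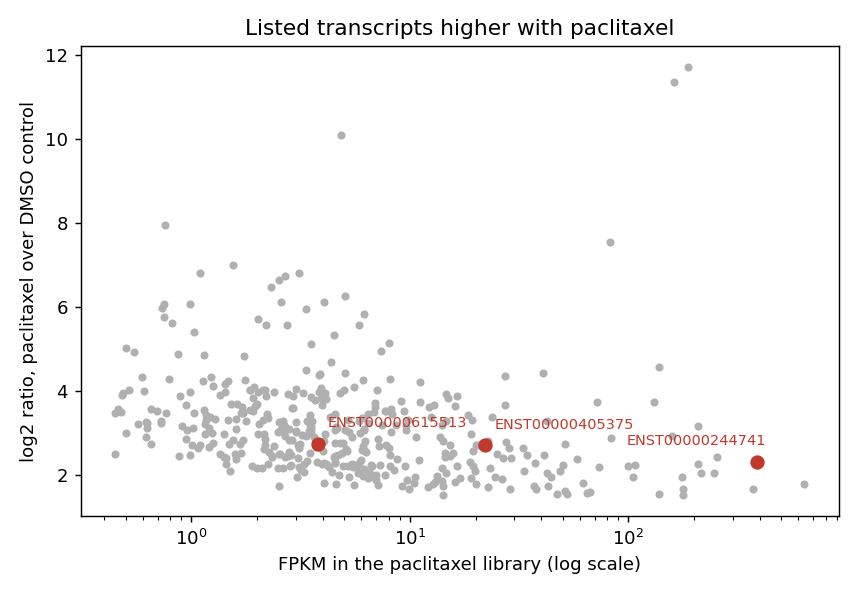
Each point is 1 of the 418 listed transcripts that were higher with paclitaxel and above 0 in both libraries, with its FPKM in the paclitaxel library (x axis, log scale) against its log2 ratio over the DMSO library (y axis). The CDKN1A transcripts (red) lie at 3.80, 22.1 and 387 FPKM, and ENST00000244741 lies at the right, at 387 FPKM and a log2 ratio of 2.32, among the most abundant and below the middle of the ratios.

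The 5 higher transcripts with the most FPKM in the paclitaxel library were, after ALDH3A1 and CDKN1A, those of SAT1, RPS19 and SPP1. ALDH3A1, an aldehyde dehydrogenase, had 637 FPKM with paclitaxel and 185 FPKM with DMSO. SAT1, which acetylates polyamines, had 371 FPKM with paclitaxel and 117 FPKM with DMSO. The RPS19 form, of a protein of the small ribosomal subunit, had 254 FPKM with paclitaxel and 47.3 FPKM with DMSO, and SPP1, which encodes secreted osteopontin, had 248 FPKM with paclitaxel and 59.9 FPKM with DMSO. Only the RPS19 form of these 4 had a larger ratio than CDKN1A, at 5.37-fold.
Of transcripts with at least 10 FPKM in the paclitaxel library, the 5 whose log2 ratio over 2 libraries lay nearest to that of ENST00000244741 differed from it by at most 0.05. They belonged to SULF2, an extracellular sulfatase (log2 ratio 2.30), GPX2, a glutathione peroxidase (2.29), LRP1, an endocytic receptor (2.36), the chemokine CXCL5 (2.27) and 1 form of MDM2, the ubiquitin ligase that p53 induces and that degrades p53 (ENST00000393415, 2.37). CXCL5 was the most abundant of them, with 208 FPKM with paclitaxel and 43.3 FPKM with DMSO. A ratio over 2 libraries is a single number per transcript, so likeness in it is a description only.

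The skipped exons of CDKN1A all lie before its start codon, and the 2 that belong to annotated coding transcripts leave the coding sequence the same. Each event names 1 internal exon and the exons on either side of it, which are joined directly when it is skipped. The 3 events use 3 different exons, of 146, 32 and 91 bases. The exon of 146 bases (chr6:36677788-36677933, hg38) and the exon of 32 bases (chr6:36677902-36677933) end at the same base, so that they share a donor site and the shorter one is the end of the longer one. Both lie between the distal and the main start. The exon of 91 bases (chr6:36682640-36682730) lies in the first intron of ENST00000244741, 3926 bases after its start.
All 3 events join the same downstream exon, at base 36684097, which is 5 bases before the start codon at base 36684102. None of the 3 lengths is a multiple of 3, but the exons of 32 and 91 bases lie in the 5′ untranslated region of their coding transcripts, where this shifts no frame. The 5 coding transcripts of CDKN1A in GENCODE 44 have 1 coding sequence of 164 codons between them, and what differs at their 5′ ends is the length of the untranslated region. This is 90 bases in ENST00000244741, 235 bases in ENST00000405375 and 70 bases in ENST00000615513. With the exon of 91 bases it is 174 bases in ENST00000373711, and with the exon of 32 bases it is 72 bases in ENST00000448526, whose first exon is shorter. The exon of 146 bases belongs to ENST00000459970, which has no annotated coding sequence, and it holds 1 ATG, while the other exons hold 0.

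**Figure D3:**
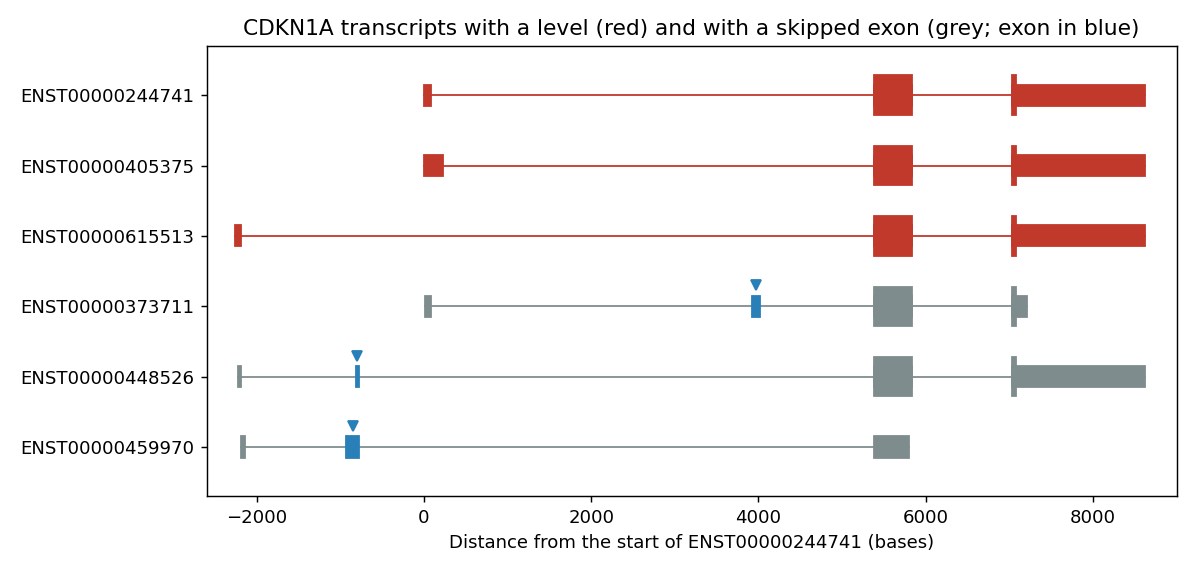
Exons (thin boxes), coding parts (thick boxes) and introns (lines) of CDKN1A transcripts from GENCODE 44, by distance in bases from the start of ENST00000244741 (x axis). Red transcripts have a level in the expression table, grey ones carry the skipped exons of 91, 32 and 146 bases (blue, with arrowheads), and every blue exon lies left of the coding part.

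The transcript levels and the events meet at 2 junctions. The skipping form of the event with the exon of 91 bases uses the junction of ENST00000244741, and the skipping form of the event with the exon of 32 bases uses that of ENST00000615513. Both of these transcripts have a level in the expression table, and both were higher with paclitaxel, at 4.98-fold and 6.68-fold. No transcript of GENCODE 44 has the skipping junction of the event with the exon of 146 bases. None of the 3 listed transcripts holds any of the skipped exons, and ENST00000373711, ENST00000448526 and ENST00000459970, which hold them, have no level here.

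Splice sites of these exons and first-exon donors of the listed transcripts are shown, with the invariant intron bases AG and GT in capitals. The upstream donor of the event with the exon of 146 bases is not shown. No event uses the first-exon donor of ENST00000405375. An acceptor is given as 20 intron bases and 3 exon bases, and a donor as 3 exon bases and 6 intron bases, all in hg38 on the plus strand of chromosome 6.
Acceptor of the exon of 146 bases: tgctgcatgatctgagttAGgtc
Acceptor of the exon of 32 bases: ccccttcctggccaacaaAGctg
Acceptor of the exon of 91 bases: agcagagctttcacccccAGaaa
Acceptor of the shared downstream exon: tccttgtatctctgctgcAGgcg
Donor shared by the exons of 146 and 32 bases: cagGTgagt
Donor of the exon of 91 bases: cagGTaggt
First-exon donor of ENST00000244741: gagGTgaga
First-exon donor of ENST00000405375: cagGTgaat
First-exon donor of ENST00000615513: cagGTgagg

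All these sites carry AG or GT at the intron ends. The first-exon donors of ENST00000244741 and ENST00000405375 are the alternatives that set these listed forms apart, and the downstream acceptor is common to every listed form and every event.
The number of reads behind the events cannot be given by condition. The per-library columns of the skipped exon table are headed sample 1 and sample 2, with nothing that ties either to paclitaxel or DMSO, so they were not used, and whether inclusion of a CDKN1A exon differed between the conditions was not tested. In number of events CDKN1A was an ordinary gene: the median over 9939 genes with an event was 3, and 50.9% of them had 3 or more. In length the exon of 32 bases was among the shortest, since 1.07% of events in the table had an exon of 32 bases or less, against a median of 120 bases.

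In a list of genes that p53 is known to induce, every listed member was higher with paclitaxel, CDKN1A among them. The list was chosen with earlier results of these data known. Of 46 p53 target genes, CDKN1A included, 23 were listed, of which 22 were at least 2-fold higher, none was lower, and CYFIP2 was listed at 2.90 FPKM with paclitaxel and at 0 with DMSO. Of 755 listed genes with a level above 0 in both libraries, 48.3% were at least 2-fold higher and 51.7% at least 2-fold lower. The list's median log2 ratio was 2.62, and that of those 755 genes was -1.71. No listed ratio lies near 0, so a median of -1.71 records only that slightly more of the 755 genes were lower. The median of the 418 higher transcripts was 2.92, so the list's ratios were not large among higher ones. The other 23 targets had no value here.
CDKN1A had the highest level of the 23, and the 15th largest ratio of the 22. MDM2 came next by level, with 209 FPKM with paclitaxel and 23.5 FPKM with DMSO for ENST00000539479, its most abundant form. GDF15, a secreted stress cytokine, had 158 FPKM with paclitaxel and 21.0 FPKM with DMSO. ATF3, a stress-induced transcription factor, had 27.4 FPKM with paclitaxel and 1.34 FPKM with DMSO, a log2 ratio of 4.35. TP53INP1, a p53-induced nuclear protein, had 14.9 FPKM with paclitaxel and 1.05 FPKM with DMSO.
The smallest differences on the log2(FPKM + 1) scale were those of PLXNB3, SESN2 and TIGAR. PLXNB3, a plexin receptor, had 0.956 FPKM with paclitaxel and 0.114 FPKM with DMSO. Its ratio of 8.41-fold was larger than the 4.98-fold of CDKN1A, and its difference is small on this scale because both levels are low. SESN2, a stress-induced inhibitor of growth signalling, had 14.2 FPKM with paclitaxel and 4.25 FPKM with DMSO. TIGAR, a regulator of sugar breakdown that the table names C12orf5, had 52.3 FPKM with paclitaxel and 18.0 FPKM with DMSO.

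Of 21 regulators of p53, 5 were listed, 1 higher and 4 lower, beside the 48.3% and 51.7% of all listed genes. The higher one was MDM2, which is also among the p53 targets. The lower ones were the checkpoint kinase CHEK1, the mitotic kinases PLK1 and AURKA, and PPP1R13L, which encodes the p53 inhibitor iASPP. PLK1 had 5.45 FPKM with paclitaxel and 86.0 FPKM with DMSO, AURKA 5.29 FPKM with paclitaxel and 39.6 FPKM with DMSO, and CHEK1 0.479 FPKM with paclitaxel and 6.03 FPKM with DMSO. The PPP1R13L form had 0.0343 FPKM with paclitaxel and 1.29 FPKM with DMSO, a low level in both.
Of 37 transcription factors known at the CDKN1A promoter, 4 were listed, 2 higher and 2 lower, beside the same 48.3% and 51.7%. Beside ATF3, the immediate early factor EGR1 was higher, with 10.4 FPKM with paclitaxel and 2.98 FPKM with DMSO. BRCA1, a repair protein that also acts at promoters, had 2.13 FPKM with paclitaxel and 10.8 FPKM with DMSO, and TCF3, an E-box binding factor, had 1.61 FPKM with paclitaxel and 6.61 FPKM with DMSO. The SP1 and SP3 genes, whose proteins bind GC boxes, were not listed.

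The listed genes for proteins that p21 binds were lower. Of 15 cyclins, kinases and PCNA, 6 were listed and all 6 were lower, with a median log2 ratio of -3.48. The share of lower genes was 51.7% over all listed genes. CDK2, the kinase of the start of S phase that p21 inhibits, had 7.50 FPKM with paclitaxel and 28.8 FPKM with DMSO. Its partners CCNE2 and CCNA2 had 0.0501 and 2.56 FPKM with paclitaxel, against 1.60 and 40.3 FPKM with DMSO. CDK1, the mitotic kinase, had 8.17 FPKM with paclitaxel and 74.5 FPKM with DMSO. The mitotic cyclins CCNB1 and CCNB2 had 16.0 and 6.24 FPKM with paclitaxel, against 133 and 84.5 FPKM with DMSO. PCNA, the D-type cyclins, CDK4 and CDK6 were among the 9 with no value here.
CDKN1A was the only listed member of 7 CDK inhibitor genes. Its close relatives CDKN1B and CDKN1C, which encode p27 and p57, and the INK4 genes CDKN2A, CDKN2B, CDKN2C and CDKN2D had no value here.
A list of 20 genes held pocket proteins, E2F factors and DREAM subunits, with MYBL2 and FOXM1 added. Of these 20, 5 were listed and all 5 were lower, with a median log2 ratio of -3.67, beside 51.7% of all listed genes. The 5 were E2F1, E2F2 and E2F8, factors of S phase genes, and MYBL2 and FOXM1, factors of G2 and mitotic genes. MYBL2 had 2.29 FPKM with paclitaxel and 50.0 FPKM with DMSO, FOXM1 3.64 FPKM with paclitaxel and 32.1 FPKM with DMSO, and E2F1 2.67 FPKM with paclitaxel and 24.2 FPKM with DMSO. E2F2 had 0.205 FPKM with paclitaxel and 3.25 FPKM with DMSO, and E2F8 0.209 FPKM with paclitaxel and 2.66 FPKM with DMSO. The pocket protein genes RB1, RBL1 and RBL2 were not listed.

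**Figure D4:**
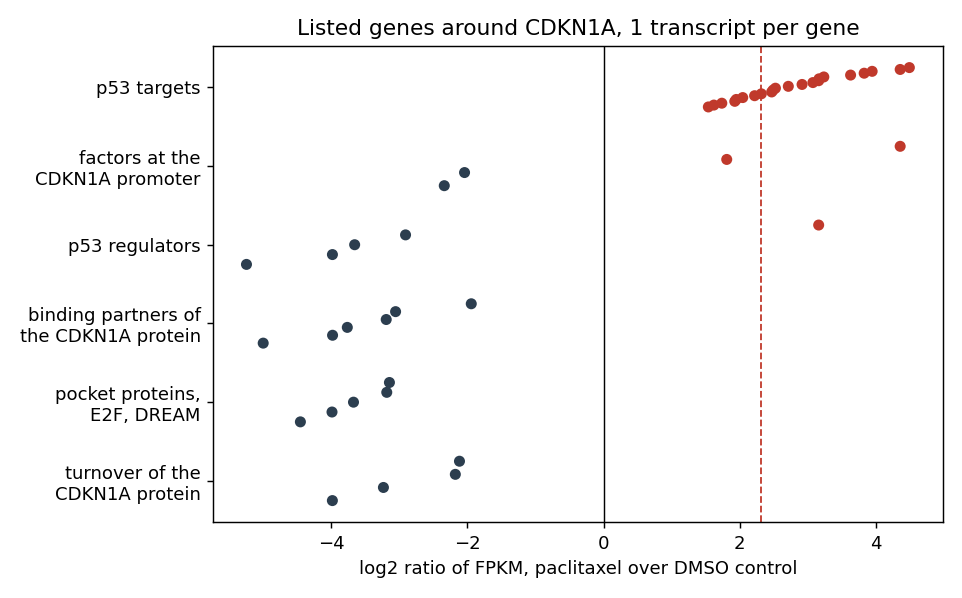
Log2 ratio of FPKM, paclitaxel over DMSO (x axis), of the listed genes of 6 groups (rows), 1 point per gene from its most abundant listed transcript, red where higher and dark where lower; the dashed line marks CDKN1A at 2.32. All points of the p53 targets lie right of 0, and all points of the binding partners and turnover factors of the CDKN1A protein and of the pocket protein and E2F group lie left of it.

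The listed genes from a list for p21 turnover were lower too. Of its 22 genes, 4 were listed and all 4 were lower, with a median log2 ratio of -2.70, beside 51.7% of all listed genes. MDM2, which was higher, is in the lists of p53 targets and p53 regulators but not in this one. The count of lower genes therefore depends on how the list was drawn. SKP2, the substrate receptor of a ubiquitin ligase that acts on p21, had 1.07 FPKM with paclitaxel and 4.64 FPKM with DMSO, and its cofactor CKS1B had 73.6 FPKM with paclitaxel and 332 FPKM with DMSO. DTL, the receptor of the ligase that acts on p21 bound to PCNA, had 1.79 FPKM with paclitaxel and 16.8 FPKM with DMSO. CDC20, the mitotic activator of the anaphase-promoting complex, had 7.92 FPKM with paclitaxel and 125 FPKM with DMSO. These are RNA levels, and p21 protein was not measured.
Of 23 RNA-binding proteins known at CDKN1A RNA, 1 was listed, QKI, with 2.84 FPKM with paclitaxel and 0.606 FPKM with DMSO. Of 17 genes around CDKN1A on chromosome 6, CDKN1A itself was the only one listed, so that neither its neighbour SRSF3 nor the noncoding RNAs PANDAR and DINOL had a value here.

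Globin genes, which are markers of another cell type, were higher in the paclitaxel library. Of 9 red blood cell markers, 3 were listed, all globins, with a summed level of 458 FPKM with paclitaxel and 0.118 FPKM with DMSO. Of these 3, 2 were at least 2-fold higher, beside 48.3% of all listed genes, and 1 was listed at 0 with DMSO. HBA2 had 188 FPKM with paclitaxel and 0.0566 FPKM with DMSO, HBA1 had 161 FPKM with paclitaxel and 0.0615 FPKM with DMSO, and HBB had 108 FPKM with paclitaxel and was listed at 0 with DMSO. HBA1 and HBA2 are nearly identical, and reads may have been given to either copy. The other 6 markers were not listed, among them ALAS2, SLC4A1 and AHSP, so the group as a whole has no value here. Of 7 immune and 8 fibroblast or endothelial markers none was listed, and of 12 epithelial and lung adenocarcinoma line markers KRT19 was, with 107 FPKM with paclitaxel and 22.9 FPKM with DMSO. The part of the globin signal in the CDKN1A values was not tested.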

How the data were processed

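The paper names poly-adenylated RNA selection, ribosomal RNA removal and mapping to hg38 with MapSplice, Cufflinks for levels and MISO for splicing, whereas the submitters' processing notes hold TopHat, Cufflinks and CASAVA 1.8.2. The authors computed FPKM for each transcript and library with Cufflinks before they deposited the table. Its column with T after the line name was read as the paclitaxel library. The authors' own comparisons (fold change, p-value and q-value, and in the skipped exon table, which has the layout of MATS, p-value, FDR and inclusion difference) were not used, except that all q-values were checked to be under 0.05. In the skipped exon table, 6 per-library columns named no condition and were not used. Exon coordinates were matched to GENCODE 44, and sequences were read from hg38 and RefSeq.

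Log2 ratios were computed without a pseudocount (Python 3.11.15, pandas 2.3.3, numpy 2.4.6), and higher or lower means at least 2-fold. That limit left out no listed transcript above 0 in both libraries. A gene was given the values of its most abundant listed transcript, by the larger of both FPKM. FPKM keeps no read counts, so the depth is unknown and no interval is given. The code was tested on simulated data. The gene and the lists were chosen with earlier results of these data known, and 2 list names absent from the reference were dropped. Some list members are not reported here and are in no list count. Named were the 5 nearest ratios at 10 FPKM or more, the 5 highest levels, up to 4 largest and 3 smallest differences per list, and all listed members of the CDK inhibitor, binding partner and neighbour lists. Genes with no value, and CYFIP2, were named after their values were seen. Alternatives were pseudocounts of 1 and 0.1, sums over transcripts, a minimum of 1 FPKM, centring on the table's median, and other mismatch limits.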

Additional observations from a re-analysis of the deposited data

How the results depend on the processing

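The log2 ratio of ENST00000244741 was 2.32, and it was 2.30 with a pseudocount of 1 and 2.34 for the sum of the listed CDKN1A transcripts. Relative to the median log2 ratio of all 921 listed transcripts, -1.93, it was 4.24, and relative to that of 121 transcripts with at least 10 FPKM in both libraries, -2.08, it was 4.39. These medians describe transcripts chosen for their difference, so they do not centre the libraries. ENST00000615513 went to 1.61 with a pseudocount of 1, being low in both libraries. Under a minimum of 1 FPKM in each library, 3 genes of the pocket protein, E2F and DREAM list were lower, 0 RNA-binding protein genes were higher, 2 regulators of p53 were lower, and 0 red blood cell markers were higher. By construction this filter leaves out genes that are low in either library. The same filter left 17 p53 targets higher. The p53 motif gave 0 matches before the main start of CDKN1A with up to 1 mismatch and 4 with up to 3, a limit at which 49.6% of genes hold a match. No paired analysis was possible because each group has 1 library. Leaving out a replicate was not possible for the same reason. No depth can be given, so counting error is unknown.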
